A study of Mus musculus with 2 samples.

Results

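The genes described here encode contents of azurophil granules, the peroxidase-positive granules of neutrophils and monocytes: the peroxidase Mpo, the serine proteases Elane (neutrophil elastase), Prtn3 (proteinase 3) and Ctsg (cathepsin G), the cysteine protease inhibitor Cst7 (cystatin F) and the proteoglycan core protein Srgn (serglycin). They were found as the gene probes whose name in the array files is 1 of these symbols, Elane standing there under its older symbol Ela2. This gave 6 probes for 6 genes, 1 probe and 1 spot each, out of 19725 named genes on the array. Wild-type male C57BL/6 mice were the source of the RNA, with granulocytes sorted from bone marrow as 1 sample and monocytes sorted from bone marrow as the other. Total RNA was amplified, labelled with Cy3 and hybridised to 1 one-colour Agilent array per cell type, both on 1 slide and in 1 scan. The sources used here do not state the sort markers or how many mice each sample came from. Having 1 array per cell type, the differences carry no replicate check or test, and that number sets the limit of precision.

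Azurophil granules form early in granulocyte development, at the promyelocyte stage, when the genes of their contents are transcribed at their highest level. Later stages shut these genes down and keep the proteins stored, so a mature neutrophil can carry much of the protein with little of the messenger RNA. Monocyte precursors make peroxidase-positive granules too. Elane, Prtn3 and Ctsg are made as inactive precursors that cathepsin C trims at the N-terminus, and they are bound in the granule by the negatively charged sugar chains of serglycin.

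Mpo, Elane, Prtn3, Ctsg and Cst7 were all lower on the granulocyte array than on the monocyte array, by 7.95-fold (Mpo) to 12.8-fold (Elane), and Srgn was 3.13-fold higher. At a fold of 4 or more, 0 of the 6 genes were higher in granulocytes, as were 8.54% of the 15609 genes that 1 or both arrays detected above background, and 5 of the 6 were higher in monocytes, as were 10.4% of those genes. At a fold of 2, 1 of the 6 (Srgn) was higher in granulocytes (29.1% of all genes) and 5 in monocytes (20.9%). At a fold of 8, the counts were 0 (3.34%) and 4 (4.27%), without Mpo. Each difference is the granulocyte log2 level less the monocyte one, after dividing each array's signals by their 75th percentile. The median difference of the 6 genes was -3.43, and that of all 15609 genes was 0.41. Without scaling, 3.72% of all genes passed 4-fold in granulocytes and 19.3% in monocytes, and with spike-in scaling 5.16% and 15%, while the counts among the 6 genes stayed at 0 and 5. In bulk samples, fewer cells that express a gene and less RNA of that gene per cell cannot be told apart.

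**Figure D1:**
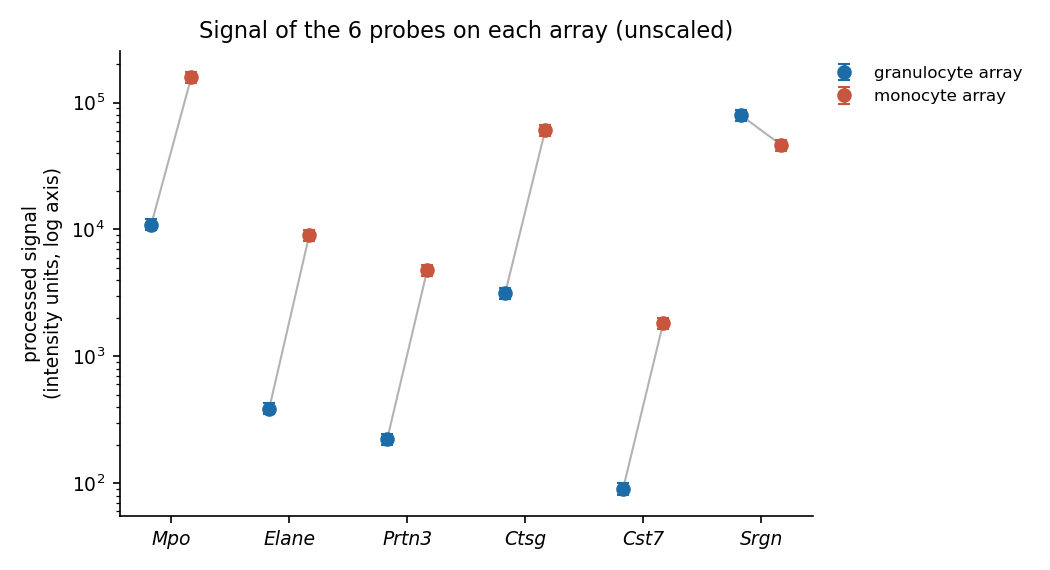
Processed signal of each probe in intensity units on a log axis, before scaling between arrays, on the granulocyte array (blue, left) and the monocyte array (red, right). Bars are the scanner's error of about 10% and do not cover differences between samples; 5 probes lie lower on the granulocyte array and Srgn lies higher, and heights of different probes are not comparable.

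Mpo, whose product turns hydrogen peroxide and chloride into hypochlorous acid, gave a processed signal of 10902 ± 1090.2 intensity units in granulocytes and 158639.8 ± 15864 in monocytes (± is the scanner's error of a single spot). After scaling, its levels were 5.01 in granulocytes and 8.0 in monocytes on the log2 scale, a difference of -2.99 with a scanner error of 0.20. It was far above background on both arrays, and its difference was the smallest of the 5 genes that were lower in granulocytes. Its probe lies on chromosome 11 at 87619795 to 87620570 in the build mm8, which the files use. That stretch of 776 bases is longer than the probe's 60 bases, so the probe joins separate parts of the genome, as one across a splice junction does.

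Elane, the elastase that degrades elastin and bacterial outer membrane proteins, had a signal of 387 ± 38.8 in granulocytes and 9033 ± 903 in monocytes. Its scaled levels were 0.19 and 3.86, and its difference of -3.67 was the largest of the 6. Prtn3, a close relative of elastase and the main autoantigen in human granulomatosis with polyangiitis, had a signal of 222 ± 22.3 in granulocytes and 4801 ± 480.1 in monocytes. Its scaled levels were -0.61 and 2.95, a difference of -3.56. The differences of these neighbouring genes lay within 0.11 of each other, less than the scanner error of 0.20 of either. The Elane probe lies at 79291147 to 79291206 on chromosome 10 in mm8, 6078 bases beyond the end of the Prtn3 probe, which spans 79284253 to 79285069. Because elastase and proteinase 3 are related in sequence, the probes are shown as the files give them. Neither shared a run of 20 bases with any other gene probe of the array, on either strand, and each has 1 reading frame without a stop codon. Probes were compared with probes only, so this does not show whether either can bind the transcript of the other gene.
Elane probe: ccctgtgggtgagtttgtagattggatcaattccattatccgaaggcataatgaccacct
Prtn3 probe: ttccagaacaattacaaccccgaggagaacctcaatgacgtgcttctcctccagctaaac

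Ctsg, the chymotrypsin-like protease of the same granules, gave 3140.3 ± 314 in granulocytes and 60748 ± 6075 in monocytes. Its scaled levels were 3.21 and 6.61, a difference of -3.40. The 3 serine proteases therefore differed from one another by at most 0.27 in their change, although Ctsg lies on another chromosome, with its probe at 55054029 to 55054088 on chromosome 14 in mm8.

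Cst7 encodes an inhibitor of cysteine proteases, among them cathepsin C, and is also expressed in natural killer cells. Its probe had a signal of 90.8 ± 9.41 in granulocytes and 1837 ± 184 in monocytes. The scaled levels were -1.90 and 1.56, a difference of -3.47. The lower value still stood above the 153 negative control spots of the granulocyte array, whose highest signal was 4.78. The probe lies on chromosome 2 at 150270195 to 150270254 in mm8. Of the 6 genes this one depended the most on background handling: its difference was -2.72 after normexp background correction, which compresses dim signals, and remained past 4-fold.

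Srgn, the core protein that carries the granule's glycosaminoglycan chains and is used in secretory granules of many blood cells, ran the other way. Its signal was 79209.9 ± 7921 in granulocytes and 46274 ± 4627 in monocytes, and its scaled levels were 7.87 and 6.22. The difference of 1.65 lies above the median of 0.47 of the 14183 genes measured on both arrays, where 87.0% of genes had a lower difference. Without scaling it was 0.78. The gap between Srgn and Mpo, 4.64 on the log2 scale, and that between Srgn and Elane, 5.32, do not depend on any scaling by 1 constant per array. The Srgn probe lies on chromosome 10 at 61889828 to 61889887 in mm8.

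All 12 probe values were well above background, 0 were saturated and 0 were flagged as outliers. For 4 of them, Mpo and Ctsg on the monocyte array and Srgn on both arrays, the scanner had used its low-gain scan and scaled it up. Mpo in monocytes, the nearest to saturation, reached 27.4% of the saturation value. Of the 41089 gene probes with a value on each array, 63.9% were well above background in granulocytes and 68.2% in monocytes. The lower 5 genes spanned 0.68 from Elane to Mpo. Of the genes measured on both arrays, 2.02% had a lower difference than Elane and 3.89% a lower one than Mpo.

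**Figure D2:**
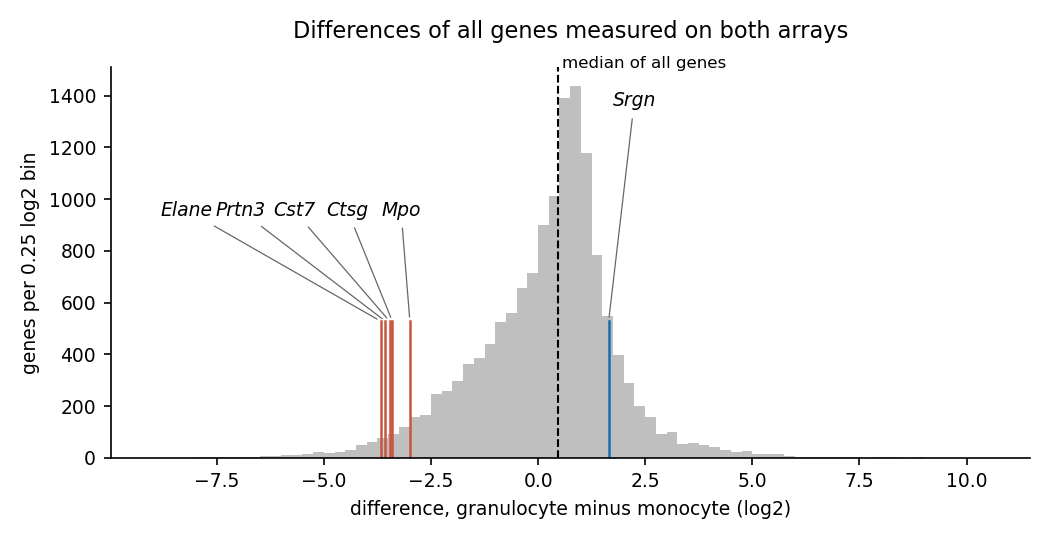
Histogram of the differences (granulocyte minus monocyte, log2) of the 14183 genes measured on both arrays, in bins of 0.25, with the 6 genes marked by lines and the median of 0.47 dashed. Elane, Prtn3, Cst7, Ctsg and Mpo lie together in the lower tail, between -3.67 and -2.99, and Srgn lies on the upper side at 1.65.

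The markers of each label were higher on the array of that label than on the other. All 7 granulocyte markers listed were higher in granulocytes (median 3.45), 5 by 4-fold or more, and all 7 monocyte markers were lower (median -6.54), 6 by 4-fold or more. Summed scaled signals of the granulocyte markers were 2261 in granulocytes and 624 in monocytes, and those of the monocyte markers 15.3 and 499. Early myeloid progenitor markers were mixed: 3 of 7 passed 4-fold in monocytes, and the median was -1.41. None of the marker lists was made for the promyelocyte stage. Cd34 (-3.51), Cd27 (-3.18) and Ms4a3 (-2.73), a gene of granulocyte and monocyte progenitors, were lower in granulocytes, and the stem cell factor receptor gene Kit (1.35) was higher. Their summed scaled signals were 13.96 in granulocytes and 37.5 in monocytes, and without Ms4a3, the brightest, 10.2 and 12.5. The part of progenitor content in the differences of Mpo, Elane, Prtn3 and Ctsg was not tested.

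Markers of cells that also use Cst7, Srgn or related proteases differed as well. Of 10 natural killer cell markers, 9 were above background, 6 of these passed 4-fold in monocytes, and the median was -2.77. Klrd1 (-4.53) and Nkg7 (-3.29) were among them, and Ncr1 was not above background on either array. The summed scaled signals of these markers were 2.07 in granulocytes and 22.5 in monocytes, and their part in the Cst7 difference was not tested. Of 11 basophil and mast cell markers, cells whose granules also hold serglycin, 2 passed 4-fold in granulocytes and 0 in monocytes (median 1.16). Their summed scaled signals were 332 in granulocytes and 11.3 in monocytes, of which the histidine decarboxylase gene Hdc (5.03) alone gave 328 and 10.1. The others summed to 3.67 in granulocytes and 1.19 in monocytes, and the part of these cells in the Srgn difference was not tested. Eosinophil (median 0.62), B-cell (0.91) and T-cell markers (-1.67) numbered 5 above background in each list, of which 2 T-cell genes, Lck (-3.98) and Cd3g (-3.44), reached 4-fold. The T-cell list was mixed, with 3 genes lower in granulocytes and 2 higher, Cd3d (1.76) and Cd3e (0.44). Its summed scaled signals were 5.24 in granulocytes and 4.42 in monocytes, and without Cd3d, the brightest, 0.73 and 3.08.

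Genes that mature or restrain the proteases differed in both directions. The activating enzyme gene Ctsc differed by -4.80, with scaled levels of 0.26 in granulocytes and 5.05 in monocytes, and so was lower in granulocytes like the proteases it trims. The inhibitor gene Serpinb1a, which blocks elastase, proteinase 3 and cathepsin G, differed by 1.98, with levels of 7.51 in granulocytes and 5.53 in monocytes. Its difference thus lay 5.65 above that of Elane. Slpi (2.50), another inhibitor of elastase and cathepsin G, was higher in granulocytes too. Inhibitor genes did not all run this way, since the serpin gene Serpina3g (-2.61) was lower in granulocytes and the cystatin genes Cst3 (-0.21) and Cstb (-0.01) differed by less than 2-fold. Of the other cysteine protease genes of the endosomal system, Ctss (-4.50), Lgmn (-4.02) and Ctsb (-1.36, and -2.02 by its other probe) were lower. Ctsl (-0.58) and Ctsh (-0.39) differed by less than 2-fold. Over the whole list of 20 maturation enzymes and inhibitors, 18 were above background, 5 passed 4-fold in granulocytes and 4 in monocytes, and the median was 0.17. Timp2 (4.68), Wfdc21 (3.77) and Serpinb6a (3.15, and 1.1 by its other probe) were the highest.

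Other genes of azurophil granules did not differ to the same extent. Of 20 listed, 19 were above background, 2 passed 4-fold in granulocytes and 1 in monocytes, and the median was -0.43. The cholesterol-binding Npc2 (-2.15) was the 1 gene past 4-fold that was lower in granulocytes, followed by the hydrolase genes Arsb (-1.85, and -0.91 by its other probe) and Glb1 (-1.61). The cathepsin gene Ctsd (2.34) and the granule membrane gene Cd63 (2.14) were higher. Prss57, the fourth serine protease of these granules, differed by -0.98, less than any of Elane, Prtn3 and Ctsg. The lysozyme genes Lyz2 (0.95) and Lyz1 (0.94, by a probe that lists 2 genes) differed by less than 2-fold.

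Relatives of the proteases outside the set were often not above background. Of 25 listed, 16 were above background on 1 or both arrays, 0 passed 4-fold in granulocytes and 1 in monocytes, and the median was 0.07. The granzyme gene Gzmb was at least 6.83-fold higher in monocytes, and the mast cell protease gene Prss34 (1.91) was the highest. Of the peroxidase list, 6 of 8 genes were above background, with a median of 0.65. The eosinophil peroxidase gene Epx (0.38) and the lactoperoxidase gene Lpo (0.91), the nearest relatives of Mpo, differed by less than 2-fold, and the catalase gene Cat (-1.51) was lower in granulocytes. The cyclooxygenase genes Ptgs2 (3.38) and Ptgs1 (1.66), which belong to the same enzyme superfamily, were higher in granulocytes.

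Myeloperoxidase needs haem and chaperones of the endoplasmic reticulum to mature. Of the 13 genes listed for these steps, 9 were below 0 and the median was -0.99, and 1 each way reached 4-fold. These were the haem synthesis genes Cpox (-2.23) and Ppox (2.32), which act in consecutive steps. The chaperone genes Canx (-1.55) and Calr (-1.14), whose products bind the Mpo precursor, were lower in granulocytes, and Alas1 (1.26), the first enzyme of haem synthesis outside the red cell lineage, was higher.

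Genes of chondroitin and heparan sulfate synthesis, listed because serglycin carries sugar chains of such kinds, differed in both directions. Which chains serglycin carries in these cells was not measured. Of 27 listed, 26 were above background, 5 passed 4-fold in granulocytes and 7 in monocytes, and the median was 0.38. The genes with the largest differences toward granulocytes were the chondroitin sulfotransferase gene Chst15 (4.64), Ndst1 (3.37, with other probes from 0.31 to 3.57), whose product sulfates heparan sulfate, and the chondroitin synthesis gene Csgalnact1, at least 7.02-fold higher. Those with the largest differences toward monocytes were the heparan sulfate polymerase gene Ext1, at least 44.6-fold higher in monocytes, the heparan sulfotransferase gene Hs6st1 (-4.14) and the sulfate donor synthase gene Papss2, at least 8.62-fold higher in monocytes. The other heparan genes, Ext2 (-2.59), Extl3 (-1.78), Ndst2 (-0.88), Hs2st1 (-2.86) and Glce (-2.25), were lower in granulocytes. Of the other chondroitin genes, Chsy1 (1.62), Chpf2 (1.14), Csgalnact2 (0.59), Chst3 (1.15), Chst11 (2.26), Chst12 (1.92) and Chst13 (2.72) were higher. Chpf (-0.55) and Chst7 (a bound of -0.87) were lower. The median of the list pools both kinds.

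Transcription factors known for their part in azurophil gene control differed less than the 5 granule genes lower in granulocytes, with 2 exceptions. Of 16 above background, Klf4 (-6.63) and Irf8 (-5.46, and -4.72 by its other probe), factors of the monocyte lineage, were lower in granulocytes by over 4-fold, and Ets1 (2.96) and Cebpd (2.07) were higher by over 4-fold. Spi1, which encodes PU.1, differed by 1.96, with scaled levels of 1.55 in granulocytes and -0.41 in monocytes. Cebpa, the factor needed to enter the granulocyte and monocyte path, differed by -1.68. Myb (0.41, with other probes from -0.82 to 0.72) and Gfi1 (0.55) differed by less than 2-fold. The list's median was 0.48, and Cebpe was not analysed here.

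The specific granules, which form after azurophil granules, showed other values. All 14 genes listed for them were above background, 7 passed 4-fold in granulocytes and 0 in monocytes, and their median was 1.98. The lactoferrin gene Ltf (2.08), the collagenase gene Mmp8 (5.49), Olfm4 (5.60) and Ceacam10 (8.11) were higher in granulocytes, and the ficolin gene Fcnb (-1.74) was lower. Summed scaled signals of the 14 genes were 3747 in granulocytes and 976 in monocytes. Several were thus bright in monocytes too, among them Ltf at a scaled level of 7.33 and Camp at 7.04. The share of granulocyte-lineage cells in the monocyte sample was not tested. With 1 array per cell type, the gap between this list and the azurophil genes could not be tested.

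**Figure D3:**
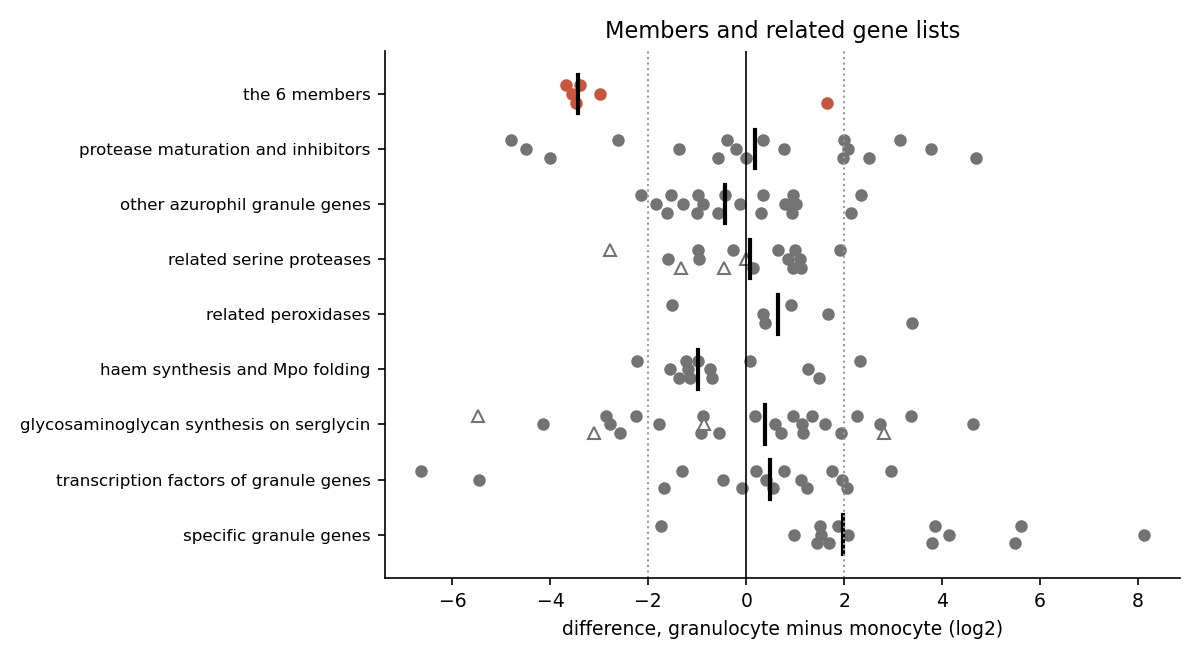
Differences (granulocyte minus monocyte, log2) of the 6 genes and of the genes above background in 8 related lists, 1 point per gene, with black bars at the medians and dotted lines at 4-fold. Open triangles are lower bounds for genes not above background on 1 array; the median of the 6 genes is -3.43, and those of the other lists lie between -0.99 and 1.98.

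Prtn3 and Elane are neighbours on chromosome 10, and the genes beside them were looked up in the gene order of the assembly GRCm38.p6, after the values had been seen. Plppr3, which encodes a phospholipid phosphatase-related membrane protein and lies next to Prtn3, differed by -3.61, with scaled levels of -2.76 in granulocytes and 0.85 in monocytes. On the other side, the complement factor D gene Cfd was not well above background in granulocytes and was at least 2.52-fold higher in monocytes. Next to these lie the splicing factor gene Ptbp1 (-1.64, and -2.28 by its other probe) and the Mediator gene Med16 (0.20). Farther out, Palm (1.22), R3hdm4 (3.82) and Kiss1r (4.76) were higher in granulocytes. The genes from Ptbp1 to Cfd were therefore all lower in granulocytes, under the main scaling, between neighbours that were not. The ends of this run were set by the values themselves, and over the whole array 5928 of 15609 genes were below 0.

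The neighbours of Mpo and Ctsg gave other values. On chromosome 11 Mpo lies between Tspoap1 (-1.50) and Lpo, and Epx lies beyond, so that of these peroxidase genes Mpo alone differed by more than 2-fold. Ctsg lies in a cluster of mast cell protease and granzyme genes on chromosome 14. Mcpt8 beside it differed by 1.0 and Mcpt4 by 0.65 (2.49 by its other probe), Gzmd by a bound of -0.45, and Gzme, Gzmg, Gzmn, Mcpt2 and Mcpt9 were not above background on either array. The genes beside Cst7 were Zfp345 (-0.49) and Apmap (1.30), and those beside Srgn were Vps26a (0.07) and Kifbp (0.66), of which none reached 4-fold. One gene farther on, Acss1 beyond Apmap (-2.82) and Ddx21 beyond Kifbp (-3.49, with other probes up to -1.98) were lower in granulocytes.

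**Figure D4:**
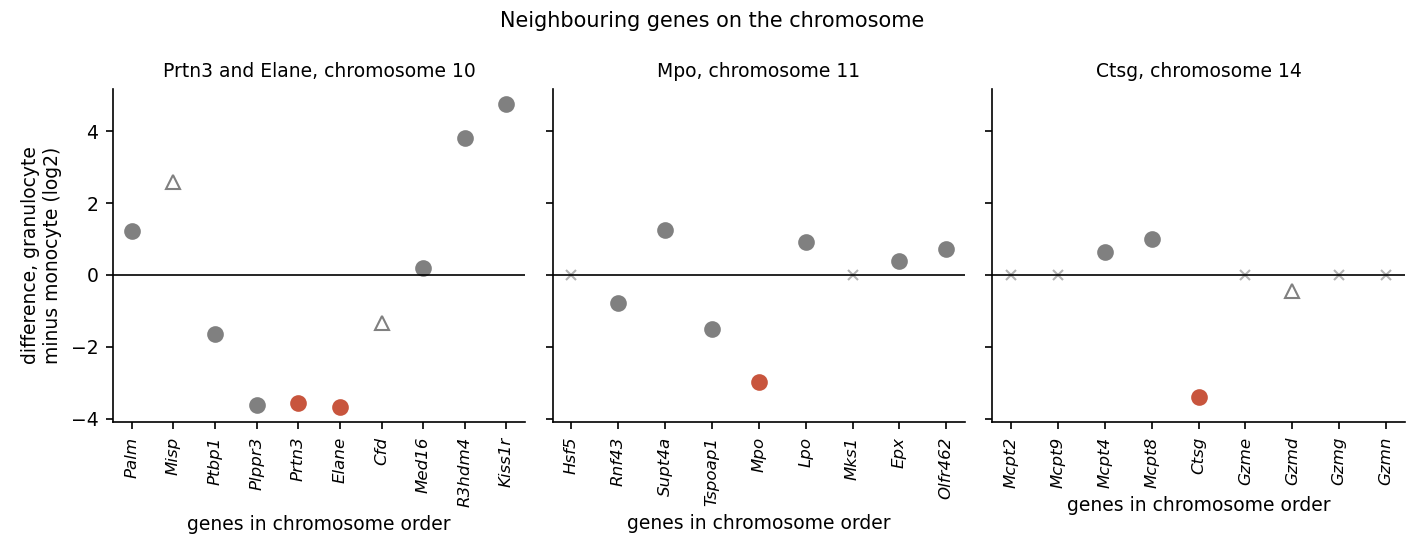
Difference (granulocyte minus monocyte, log2) of each gene and its 4 protein-coding neighbours on either side, in chromosome order and not to distance, around Prtn3 and Elane, Mpo, and Ctsg (red). Triangles are bounds, where the difference is at least as far from 0 as drawn, and crosses at 0 are genes with no value. Plppr3 at -3.61 lies beside Prtn3 and Elane, while Lpo, Epx and Mcpt8 lie above 0.

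Since 5 of the genes differed alike, their promoters were read for short motifs on both strands, in the 250 bases before each RefSeq start site (build GRCm38.p6). The motifs were AGGAAGT, a core bound by PU.1 and other ETS factors, TTGCNNAA for C/EBP factors, AACNG for Myb and TGTGGT for RUNX factors. They were chosen after these promoters had been read, so setting their presence here against their share elsewhere is not a test. AGGAAGT occurred once in each of the promoters of Mpo, Elane, Prtn3, Ctsg and Cst7, each time on the strand of the gene, and in neither of the 2 start sites of Srgn. It was present in 7.69% of all 32851 windows of this length. Counted by gene, with a match in any of its windows, it was present in 8.78% of 12385 genes above background on 1 or both arrays. In the same count it was present in 10.52% of 1055 genes past 4-fold in granulocytes and in 9.11% of 1273 genes past 4-fold in monocytes. It was not present in the windows of Plppr3, Cfd, Lpo or Epx. TTGCNNAA was found in 0 of the 7 windows of the 6 genes and in 9.56% of all windows. TGTGGT was found in those of Ctsg, Cst7 and the second start of Srgn, against 14.1% of all windows. AACNG was found in 7 of 7, and in 74.2% of all. A match describes the sequence and does not show binding, and the lack of a match to these fixed patterns does not show that a factor cannot bind. The 5 windows that hold AGGAAGT, marked in capitals, are shown 5′ to 3′ on the strand of the gene. The motif's first base lies 223 bases before the start site in Mpo (chr11:87793534-87793783, plus strand), 84 in Elane (chr10:79886062-79886311, plus), 94 in Prtn3 (chr10:79879417-79879666, plus), 206 in Ctsg (chr14:56102575-56102824, minus) and 63 in Cst7 (chr2:150570165-150570414, plus).
Mpo: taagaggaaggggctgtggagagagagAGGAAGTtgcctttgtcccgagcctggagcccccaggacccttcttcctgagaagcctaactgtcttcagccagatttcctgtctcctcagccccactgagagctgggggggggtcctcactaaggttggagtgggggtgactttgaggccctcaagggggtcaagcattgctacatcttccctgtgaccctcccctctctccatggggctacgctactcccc
Elane: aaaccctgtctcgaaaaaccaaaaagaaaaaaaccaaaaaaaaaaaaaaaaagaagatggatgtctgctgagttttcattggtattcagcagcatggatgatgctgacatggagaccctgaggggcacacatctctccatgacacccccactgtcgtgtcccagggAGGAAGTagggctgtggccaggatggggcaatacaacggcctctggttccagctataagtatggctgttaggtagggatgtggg
Prtn3: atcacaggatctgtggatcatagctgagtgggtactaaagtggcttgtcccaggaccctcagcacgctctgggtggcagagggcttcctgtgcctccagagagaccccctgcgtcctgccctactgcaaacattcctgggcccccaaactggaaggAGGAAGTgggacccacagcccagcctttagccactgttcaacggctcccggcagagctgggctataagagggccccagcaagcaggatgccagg
Ctsg: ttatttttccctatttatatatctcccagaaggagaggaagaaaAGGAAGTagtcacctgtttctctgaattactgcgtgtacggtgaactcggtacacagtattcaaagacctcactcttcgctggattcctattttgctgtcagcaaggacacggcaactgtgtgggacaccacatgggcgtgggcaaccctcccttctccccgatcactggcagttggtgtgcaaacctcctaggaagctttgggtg
Cst7: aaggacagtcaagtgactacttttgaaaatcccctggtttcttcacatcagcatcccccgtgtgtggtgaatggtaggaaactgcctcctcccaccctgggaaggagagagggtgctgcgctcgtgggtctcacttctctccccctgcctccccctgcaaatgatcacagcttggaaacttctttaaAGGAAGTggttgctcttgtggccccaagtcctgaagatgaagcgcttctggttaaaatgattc

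With 2 arrays, likeness to the set comes down to 1 number per gene. The median difference of Mpo, Elane, Prtn3 and Ctsg was -3.48. Of the 4884 other genes whose level on the brighter array was at least 4 times the 75th percentile, the 5 nearest to it were Akr1b10 (-3.49), H2-DMa (-3.48), Slc38a1 (-3.49), Prdx1 (-3.48) and Osgep (-3.49), and 77 lay within the range from Elane to Mpo.

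**Figure D5:**
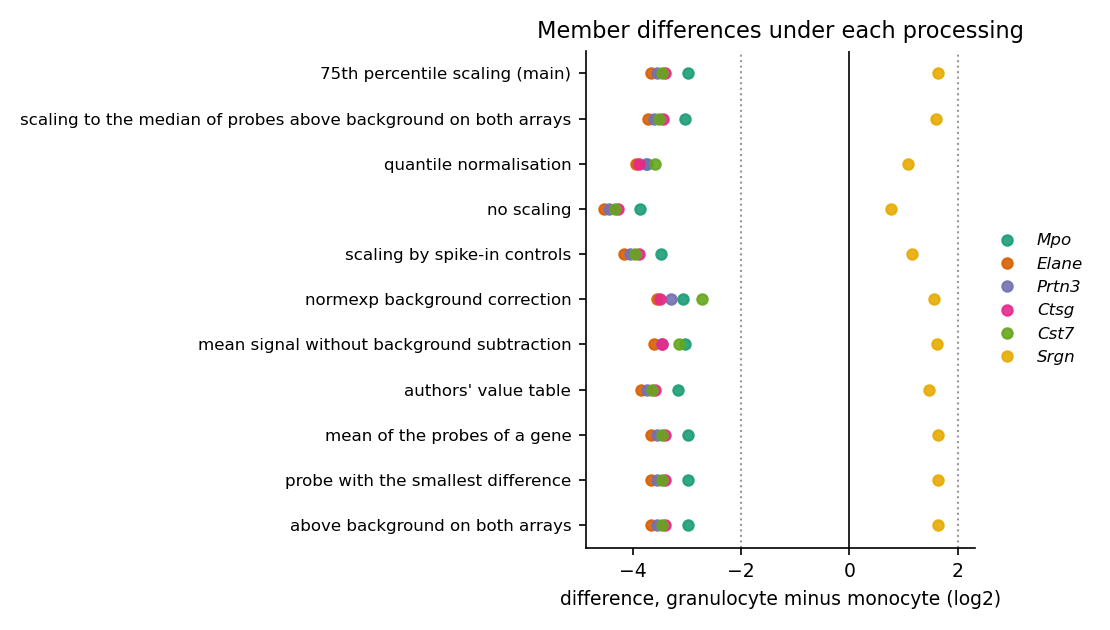
Differences (granulocyte minus monocyte, log2) of the 6 genes under the main processing, in the top row, and 10 alternatives, with dotted lines at 4-fold. Mpo, Elane, Prtn3, Ctsg and Cst7 stay left of the 4-fold line in each row, from -4.54 to -2.72, and Srgn stays between 0.78 and 1.65.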

How the data were processed

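RNA of 1 granulocyte and 1 monocyte sample was measured on 1 array each. Per the file headers, Agilent Feature Extraction 10.5.1.1 gave each spot an intensity with background subtracted and spatial trends removed, its error (a set multiplicative term of 10% dominates) and flags, with no scaling between arrays. The authors' deposited value table is on a log2 scale and equals the log2 intensity shifted by -0.24 (granulocytes) or -0.92 (monocytes). Its columns had nearly equal medians, 4.8037 for granulocytes and 4.8033 for monocytes. The sources used here do not say how the shifts were set.

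Control and outlier spots (143 and 103) were left out. Log2 intensities were reduced by the array's 75th percentile (339 for granulocytes and 621 for monocytes). Repeated spots, averaged, had a median SD of 0.07. Probes were named by RefSeq accession (GRCm38.p6), then symbol. Of several probes of a gene, the one detected on more arrays, or else the brighter, was used. If 1 array was not well above background, the higher of that array's lowest signal well above background and the probe's own value gave a bound ("at least").

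Every member of each list was counted. Named were up to 3 per list each way past 2-fold, and direct partners; other genes named were chosen after their values were seen. The 6 genes, lists and motifs were chosen with earlier results of these data known. The calculation was tested on simulated data. Python 3.11.15, R 4.3.3 and limma 3.58.1 (normexp, offset 50) were used.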

Additional observations from a re-analysis of the deposited data

How the results depend on the processing

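Over 10 alternatives (scaling to a median in place of the percentile, quantile normalisation, no scaling, spike-in controls, normexp correction, no background subtraction, the authors' value table, other probe rules and a filter on dim probes), the differences of the 6 genes kept their sign in all 60 values. With 1 probe per gene the other probe rules and the filter could not move them. A constant per array shifts all 6 alike, and the differences ranged from -3.86 to -2.99 for Mpo, -4.54 to -3.56 for Elane, -4.44 to -3.29 for Prtn3, -4.27 to -3.40 for Ctsg, -4.34 to -2.72 for Cst7 and 0.78 to 1.65 for Srgn. The counts at 4-fold stayed at 0 higher in granulocytes and 5 higher in monocytes. Under the main processing they were 1 (Srgn) and 5 at 2-fold, and 0 and 4 at 8-fold, which Mpo narrowly missed at 7.95-fold. Its difference was larger with other scalings, such as -3.04 with scaling to a median and -3.49 with spike-in controls. Without scaling the median of all genes shifted by -0.83. Relative to that median, 4 of 8 gene lists and 6 of 8 marker lists moved beyond 0.23, the median SD between probes of a gene, in 1 or more alternatives. Specific granule genes gave 0.98 with quantile normalisation, against 1.57. Related serine proteases gave -0.080 without scaling and 0.29 when both arrays had to be above background, against -0.33. Other azurophil granule genes gave -0.51 with the mean of a gene's probes and -0.42 with the probe of smallest difference, against -0.83, and haem synthesis and Mpo folding gave -0.99 with the probe of smallest difference, against -1.40. Among the markers, natural killer cell genes gave -1.76 after normexp correction and -4.02 when both arrays had to be above background, against -3.18, progenitor genes -1.05 after normexp correction, against -1.82, and basophil and mast cell genes 1.14 with quantile normalisation, against 0.76. The cause was not tested. Over all genes, the counts past 4-fold, 1333 in granulocytes and 1623 in monocytes, became 581 and 3013 without scaling, 872 and 895 after normexp correction, and 806 and 2344 with spike-in scaling. No paired analysis was possible because each cell type has 1 array, and the spread between mice was not measured.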
